A study of Mus musculus with 8 samples.

Results

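Unc5a, Kctd13 and Mtif2 are 3 mouse genes whose polyadenylated transcripts end either in the 3′-most exon or in an exon upstream of it. They were taken by symbol from the 10060 genes listed in either of 2 tables of 3′ end reads. They were selected on the measured shift of reads between these ends, D50A against wild type, in the same libraries. The share of reads in the 3′-most exon, and the reads of the ends behind it, are therefore given as a description, without a test. All 3 genes were listed in the table of upstream and 3′-most exon ends (6147 genes). Kctd13 and Mtif2 were also listed in the table of a proximal and a distal site inside the 3′-most exon (7951 genes), and all of these pairs passed the filter on low counts.

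The libraries came from whole brain of 5 mice carrying Cstf2 D50A and of 3 wild-type mice, all killed 50 days after birth on a C57BL/6NCrl background. The wild types were littermates of a colony that was backcrossed to that strain and then bred within itself. No animal was treated, and the labels name no batch. D50A exchanges an aspartate for an alanine within the RNA-binding domain of the protein. Libraries were made with the QuantSeq REV kit, in which a read starts at the polyadenylated end of a transcript. The table of upstream and 3′-most exon ends held 7768925 to 10279635 reads per D50A library and 7075383 to 13145966 per wild-type library. The table of sites inside the 3′-most exon held 10177902 to 13449054 reads per D50A library and 9616953 to 17530761 per wild-type library. Levels below are counts per 1000000 reads of the table (CPM). Among the listed markers of neurons, glia and vessels, none was at 0 in all libraries. In whole tissue, fewer cells of a type and less RNA per cell cannot be told apart.

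CSTF2 is the subunit of the cleavage stimulation factor that binds U- and GU-rich RNA downstream of the cleavage site, and with the other cleavage factors it sets where a pre-mRNA is cut and polyadenylated. When a transcript ends in an upstream exon, the exons beyond it are lost, so the encoded protein can lack or exchange its carboxyl end. Unc5a encodes a netrin receptor that steers axons away from netrin and can promote apoptosis when its ligand is missing. Kctd13 encodes a BTB-domain adaptor that brings the small GTPase RhoA to the CUL3 ubiquitin ligase. Mtif2 encodes the initiation factor that places the formylated initiator tRNA on the mitochondrial ribosome. Positions of the upstream ends were not used here, and no sequence of the ends is shown because no genome of the mm9 build was used here.

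Unc5a transcripts ended mostly in the 3′-most exon in D50A brains, and that end differed more between the genotypes than the upstream one. Its 3′-most exon held 202, 248, 156, 353 and 55 reads in D50A 1 to 5, against 6, 24 and 81 reads in wild type 1 to 3. Its upstream exon held 11, 20, 22, 24 and 13 reads in the D50A libraries, against 19, 32 and 41 in wild type. The deepest library, wild type 2, was thus among the lowest for the 3′-most exon. The 3′-most exon stood at 26.0, 27.3, 16.4, 34.3 and 6.30 CPM in D50A 1 to 5, against 0.848, 1.83 and 9.06 CPM in wild type 1 to 3. D50A 1 to 4 were high, wild type 1 and 2 were low, and D50A 5 lay below wild type 3, so the genotypes overlapped. The upstream exon stood at 1.42, 2.20, 2.32, 2.33 and 1.49 CPM in D50A 1 to 5, against 2.69, 2.43 and 4.59 CPM in wild type. Here all D50A libraries lay below all wild types, by a narrow margin (2.33 against 2.43 CPM).

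The share of Unc5a reads in the 3′-most exon was 94.8%, 92.5%, 87.6%, 93.6% and 80.9% in D50A 1 to 5, against 24%, 42.9% and 66.4% in wild type 1 to 3. It averaged 89.9 ± 5.74% in D50A and 44.4 ± 21.2% in wild type (SD, n = 5 and 3), a difference of 45.5 percentage points. The spread among wild types was the wider one. The nearest libraries of the genotypes were D50A 5, with a 95% Wilson interval of 69.99% to 88.5%, and wild type 3, with 57.6% to 74.2%. These intervals, which cover counting error only, overlap. The 3′-most exon level differed by 2.94 on the log2 scale and the upstream level by -0.69 (D50A minus wild type, with 0.5 reads added). Leaving out wild type 1 took the difference of the 3′-most exon to 2.22, and leaving out wild type 3 took it to 3.87. The upstream difference was -0.41 without wild type 3. Both ends together gave 27.4, 29.5, 18.7, 36.7 and 7.78 CPM in D50A 1 to 5, against 3.53, 4.26 and 13.6 CPM in wild type, so D50A 1 to 4 lay above every wild type and D50A 5 did not.

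In Kctd13 the 3′-most exon differed and the upstream exon hardly did. Its 3′-most exon held 264, 343, 315, 428 and 121 reads in D50A 1 to 5, against 31, 29 and 152 reads in wild type 1 to 3. Its upstream exon held 37, 42, 32, 37 and 31 reads in the D50A libraries, against 25, 38 and 47 in wild type. The 3′-most exon level was 34.0, 37.8, 33.2, 41.6 and 13.9 CPM in D50A 1 to 5, against 4.38, 2.21 and 17.0 CPM in wild type. Again D50A 5 lay below wild type 3, and D50A 1 to 4 lay above all wild types. The upstream level averaged 3.98 ± 0.658 CPM in D50A and 3.89 ± 1.22 CPM in wild type (SD, n = 5 and 3), with the genotypes interleaved.

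The share of Kctd13 reads in the 3′-most exon was 87.7%, 89.1%, 90.8%, 92.0% and 79.6% in D50A 1 to 5, against 55.4%, 43.3% and 76.4% in wild type 1 to 3. It averaged 87.8 ± 4.89% in D50A and 58.3 ± 16.75% in wild type (SD, n = 5 and 3), a difference of 29.5 percentage points. D50A 5, with a 95% Wilson interval of 72.5% to 85.2%, and wild type 3, with 70.0% to 81.7%, have overlapping intervals. On the log2 scale the 3′-most exon level differed by 2.44 and the upstream level by 0.06 (D50A minus wild type). The first of these was 1.79 without wild type 2 and 3.25 without wild type 3. The small upstream difference turned to -0.13 without wild type 2 and lay at -0.01 without D50A 1.

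Inside the 3′-most exon of Kctd13 most reads lay at the proximal site in every library. On the mm9 build the files place the proximal site at 134089144 and the distal site at 134091411, 2267 bases apart; they give no chromosome. The proximal site held 260, 340, 309, 422 and 112 reads in D50A 1 to 5, against 27, 20 and 145 reads in wild type. The distal site held 3, 3, 5, 6 and 8 reads in the D50A libraries, against 3, 6 and 7 in wild type. The distal level was 0.417 ± 0.174 CPM in D50A and 0.415 ± 0.153 CPM in wild type, against a proximal level of 23.9 ± 8.36 CPM in D50A and 5.39 ± 5.98 CPM in wild type (SD, n = 5 and 3). The distal share was 1.14%, 0.875%, 1.59%, 1.40% and 6.67% in D50A 1 to 5, against 10%, 23.1% and 4.61% in wild type, and D50A 5 lay above wild type 3. Both sites together made up 89.7% to 100% of the reads of the 3′-most exon, so this share is not independent of the measure that picked the gene, and it was not tested.

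Another gene has a listed end close by. Asphd1 overlaps Kctd13 in the RefSeq gene table, and the files place its proximal site at 134089501, 357 bases beyond the proximal site of Kctd13 and short of the distal one. Its own distal site, at 134084769, lies at a lower coordinate, so the listed sites of the genes run in opposite directions. Asphd1 gave 68.3, 73.8, 76.1, 84.2 and 92.1 CPM over its sites in D50A 1 to 5, against 74.1, 106 and 81.5 CPM in wild type. Its libraries did not follow the order seen in Kctd13: D50A 5 was the highest of the mutants and wild type 2 the highest of all. No source at hand states the strand setting of the counting, so reads of the overlapping ends cannot be told apart with certainty. Hk3 and a long noncoding RNA overlap Unc5a in the same gene table, and none overlaps Mtif2.

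In Mtif2 the upstream exon held about as many reads as the 3′-most exon in D50A, and more in wild type. Its 3′-most exon held 91, 136, 82, 158 and 46 reads in D50A 1 to 5, against 18, 15 and 51 reads in wild type 1 to 3. Its upstream exon held 82, 97, 104, 106 and 87 reads in the D50A libraries, against 115, 181 and 110 in wild type. The 3′-most exon stood at 11.7, 15.0, 8.63, 15.4 and 5.27 CPM in D50A 1 to 5, against 2.54, 1.14 and 5.70 CPM in wild type. D50A 5 and wild type 3 again lay side by side in the middle, with D50A 5 the lower. The upstream exon stood at 10.6, 10.7, 10.9, 10.3 and 9.96 CPM in D50A 1 to 5, against 16.3, 13.8 and 12.3 CPM in wild type, without overlap. It averaged 10.5 ± 0.375 CPM in D50A and 14.1 ± 2.00 CPM in wild type (SD, n = 5 and 3).

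The share of Mtif2 reads in the 3′-most exon was 52.6%, 58.4%, 44.1%, 59.8% and 34.6% in D50A 1 to 5, against 13.5%, 7.65% and 31.7% in wild type 1 to 3. It averaged 49.9 ± 10.6% in D50A and 17.6 ± 12.5% in wild type (SD, n = 5 and 3), a difference of 32.3 percentage points. The 95% Wilson intervals of D50A 5 (27.0% to 43.0%) and of wild type 3 (24.99% to 39.2%) overlap. On the log2 scale the 3′-most exon level differed by 2.01 and the upstream level by -0.42 (D50A minus wild type). The first was 1.43 without wild type 2 and 2.58 without wild type 3. The ends differed in opposite directions, and both together averaged 21.7 ± 4.42 CPM in D50A and 17.2 ± 2.05 CPM in wild type, with overlap of the genotypes.

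In Mtif2 most reads inside the 3′-most exon lay at the distal site in the D50A libraries and in wild type 3, and about evenly at both sites in wild type 1 and 2. The sites lie at 29445112 and 29445452 on the mm9 build, 340 bases apart. The distal site held 81, 124, 71, 152 and 34 reads in D50A 1 to 5, against 8, 8 and 43 reads in wild type. The proximal site held 7, 8, 8, 4 and 8 reads in the D50A libraries, against 8, 7 and 6 in wild type. Kctd13 and Mtif2 thus each had a site that stayed at a few reads in every library beside one that varied. The distal share of Mtif2 was 92.0%, 93.9%, 89.9%, 97.4% and 80.95% in D50A 1 to 5, against 50.0%, 53.3% and 87.8% in wild type, again with D50A 5 below wild type 3.

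**Figure D1:**
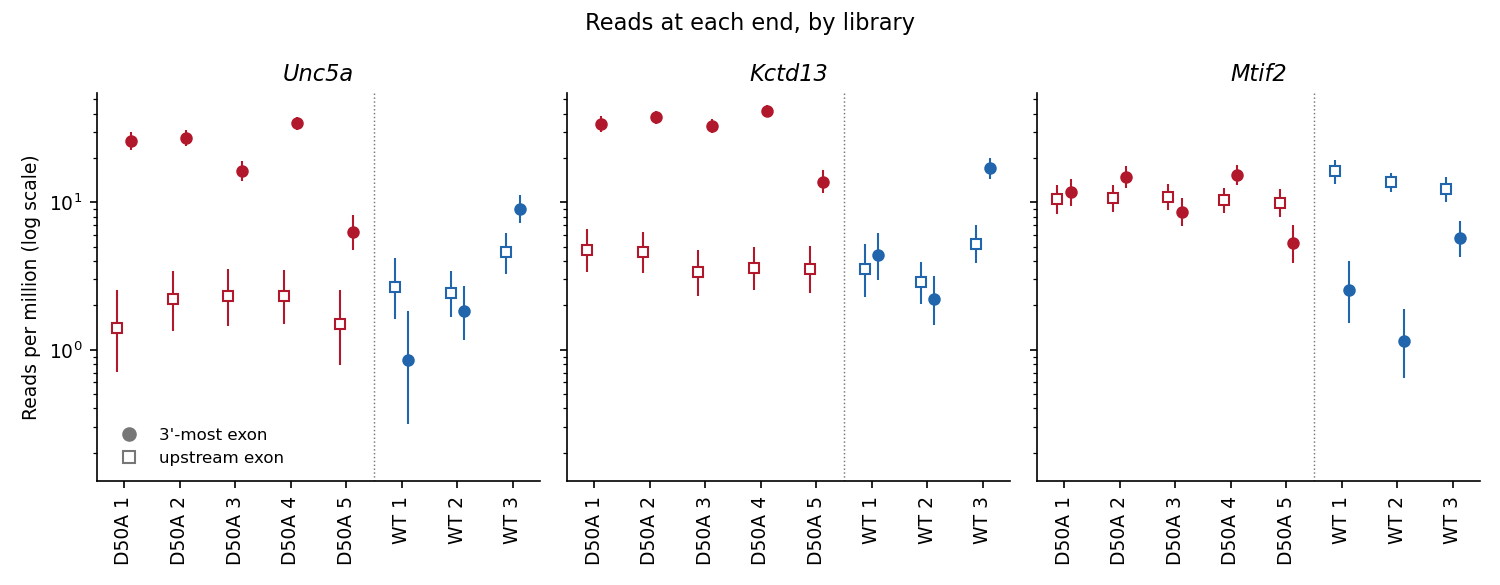
CPM (log scale) at the upstream exon (open squares) and the 3′-most exon (filled circles) of the 3 genes, with D50A libraries in red left of wild types in blue; bars are exact 95% Poisson intervals of the count. The 3′-most exon of Unc5a ranges from 6.30 to 34.3 CPM in D50A and from 0.848 to 9.06 CPM in wild type, and the upstream exon lies between 1.42 and 4.59 CPM over all libraries.

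**Figure D2:**
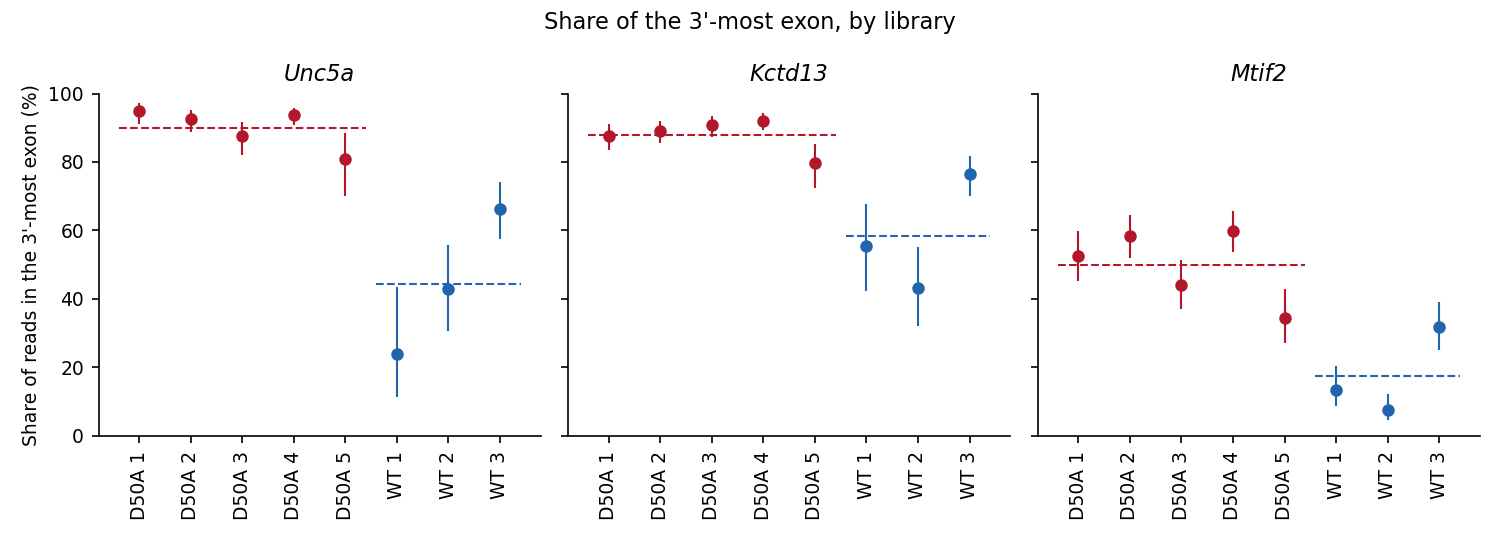
Share of reads in the 3′-most exon (%) by library with 95% Wilson intervals; dashed lines are the genotype means. D50A 5 is the lowest D50A library and wild type 3 the highest wild type in each gene, at 34.6% and 31.7% for Mtif2.

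**Figure D3:**
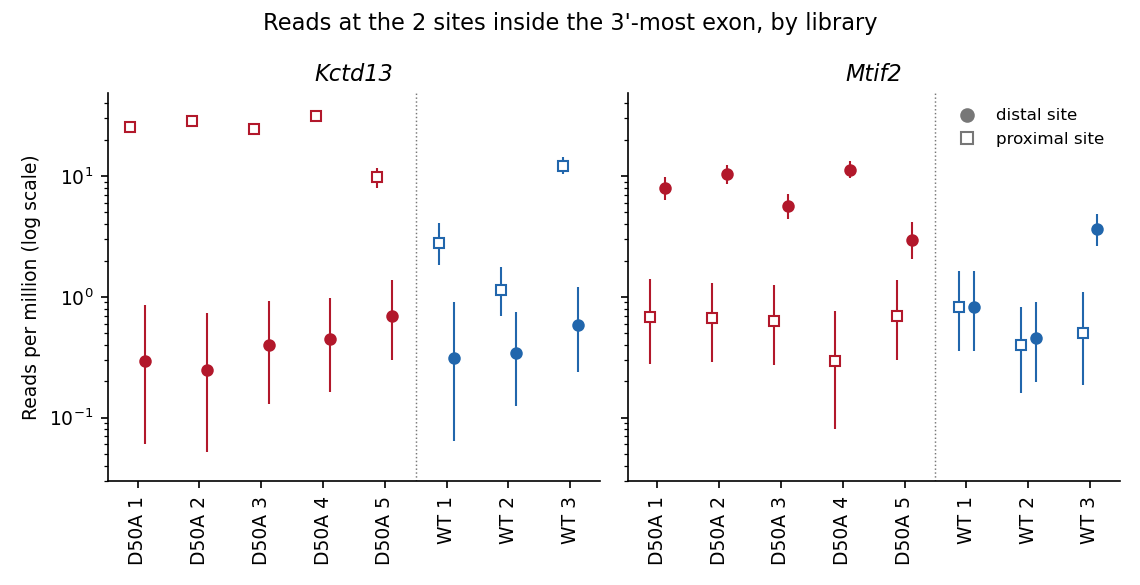
CPM (log scale) at the proximal (open squares) and distal (filled circles) site inside the 3′-most exon of Kctd13 and Mtif2, with exact 95% Poisson intervals of the count. The proximal site of Kctd13 and the distal site of Mtif2 vary between libraries, and the other site of each stays under 1 CPM.

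The libraries took nearly the same order in all 3 genes. By the level of the 3′-most exon, D50A 4 was highest, followed by D50A 2, D50A 1, D50A 3, wild type 3 and D50A 5, and these 6 places were held by the same library in each gene. Wild type 1 and 2 took the last places. The highest library exceeded the lowest by 40.5 times in Unc5a, 18.9 times in Kctd13 and 13.5 times in Mtif2 for the 3′-most exon. For the upstream exon the corresponding ratios were 3.24, 1.82 and 1.63. Among wild types alone the 3′-most exon varied by 10.7 times in Unc5a, 7.71 times in Kctd13 and 4.999 times in Mtif2, which is more than the D50A libraries varied among themselves (5.45, 3.01 and 2.92 times).

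Wild type 3 exceeded D50A 5 in the level of the 3′-most exon by 1.44 times in Unc5a, 1.23 times in Kctd13 and 1.08 times in Mtif2. The upstream exon of D50A 5 stood at 0.325, 0.675 and 0.81 of its level in wild type 3 for the same genes. The separation of the shares between these 2 libraries thus came from the upstream exon, which was lower in D50A 5, and not from the 3′-most exon.

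Across the 6001 tested pairs of this table edgeR's quasi-likelihood test called none (0.0% at an adjusted p under 0.05; lowest adjusted p = 0.202). Without adjustment 840 pairs had a p under 0.05, and 623 of them lay toward the 3′-most exon. limma called none either. DESeq2 called 5 (0.0833%), 4 of them toward the 3′-most exon, and Unc5a, Kctd13 and Mtif2 are among these. They were chosen with this contrast in view, so nothing is read from their place there. The genotypes did not overlap, with a higher share of the 3′-most exon in D50A, in 254 pairs (4.23%), the 3 genes included. Leaving out D50A 5 raised edgeR's calls to 236 pairs, 65 of them toward the upstream exon, and leaving out wild type 3 raised them to 161, 40 of them toward the upstream exon. Leaving out any other library left the count at 0. For the level of the 3′-most exon, where none of the 3 genes separated the genotypes, 136 pairs (2.27%) were higher in all D50A than in all wild-type libraries and 138 (2.3%) were lower. The upstream exon was lower in all D50A libraries in 220 pairs (3.67%), among them Unc5a and Mtif2, and higher in 111 (1.85%). For both ends together 2.28% of pairs were higher and 2.82% lower without overlap, none of the 3 genes among them.

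Unc5a had the highest difference in share of all 6001 pairs, Mtif2 was at place 17 and Kctd13 at place 20. The pairs next to Unc5a, named here after their values were seen, were Mboat1, an acyltransferase of phospholipids, with a difference of 44.1 percentage points, and Cyth1, an exchange factor of ARF GTPases, with 40.2. By the change in level of the 3′-most exon, Unc5a was at place 2, Kctd13 at place 7 and Mtif2 at place 20. Over the whole table the median change was 0.08 on the log2 scale at the 3′-most end and -0.08 at the upstream end (D50A minus wild type). An upstream change of lesser size than that of Kctd13 was seen in 11.2% of pairs, compared with 61.3% for Mtif2 and 81.7% for Unc5a. A larger change at the 3′-most end than at the upstream end was not particular to the 3 genes. It was seen in all 20 pairs whose share difference was at least that of Kctd13, the 3 genes included. These pairs were picked by their share difference, and the count over all 6001 pairs was not taken, so nothing more is read from it.

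**Figure D4:**
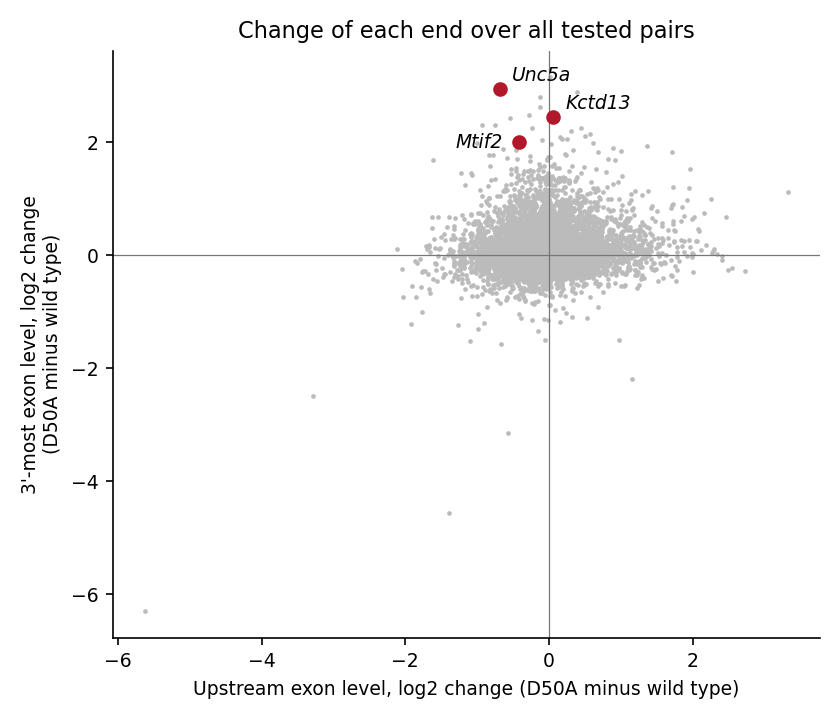
Log2 change (D50A minus wild type) in the level of either end for each of 6001 tested pairs, upstream exon on x and 3′-most exon on y (grey), with the 3 genes in red. Unc5a (-0.69, 2.94), Kctd13 (0.06, 2.44) and Mtif2 (-0.42, 2.01) sit at the upper edge. The point at the lower left is Gabra6 (-5.62, -6.29), a GABA receptor subunit gene of cerebellar granule cells. It was named after its value was seen. Gabra6 had 29.0 CPM in D50A 5, beside 30.4 to 39.6 CPM in wild type. The other D50A libraries had 0.0 to 0.257 CPM. Its log2 values thus rest on libraries at or near 0 reads, with 0.5 reads added, and D50A 5 did not share the change.

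Levels of cell type markers differed between libraries, in part along with genotype. Summed over the 9 of 12 cerebellar granule cell markers in the table of sites inside the 3′-most exon, the level was 379, 362, 364, 393 and 1619 CPM in D50A 1 to 5, against 1967, 1630 and 1650 CPM in wild type 1 to 3. The size of the gap depended on the marker. Cbln3 had 1.12 to 2.17 CPM in D50A 1 to 4 and 265 CPM in D50A 5, against 293 to 325 CPM in wild type. Cadps2 had 27.8 to 31.8 CPM in D50A 1 to 4 and 33.0 CPM in D50A 5, against 32.4 to 41.4 CPM in wild type. D50A 5 thus stood with the wild types in the sum of the granule cell markers, as it did in the sum of the 5 listed of 8 Purkinje cell markers. That sum was 525 to 555 CPM in D50A 1 to 4 and 896 CPM in D50A 5, against 849.8 to 976 CPM in wild type. It followed Car8, Slc1a6 and Rora. In Calb1 (80.9 CPM, against 65.0 to 83.1 CPM) and Itpr1 (187 CPM, against 155 to 213 CPM) D50A 5 lay within the range of D50A 1 to 4. Wild type 3 stood with the other wild types in both lists. The 6 listed of 7 neuron markers, which include Snap25 and Syt1 of the synapse, summed to 6921, 6275, 5018, 6736 and 4321 CPM in D50A 1 to 5, against 3963, 4207 and 5550 CPM in wild type 1 to 3. In that sum D50A 5 lay below wild type 3, and so did 4 of the 6 genes, among them Syt1 and Map2, which hold much of it. Rbfox3, at 295 CPM in D50A 5 and 280.1 CPM in wild type 3, and Stmn2, at 707 CPM in D50A 5 and 670.3 CPM in wild type 3, ran the other way.

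Other lists were mixed in the same way. The 3 of 7 astrocyte markers in that table summed to 893 CPM in D50A 5 and 1654 CPM in wild type 3, with Slc1a2 as the main part, while Aqp4 had 230.4 CPM in D50A 5 and 214 CPM in wild type 3. Over the genotypes the astrocyte sum was 1539 ± 488 CPM in D50A and 1167 ± 422 CPM in wild type there, but 3572 ± 364 CPM in D50A and 4208 ± 549.95 CPM in wild type (SD, n = 5 and 3) for the 4 markers in the table of upstream ends, so its direction depends on which markers are listed. Of the 3 of 5 endothelial markers in the table of upstream ends, Flt1 had 56.4 CPM in D50A 5 and 125 CPM in wild type 3, Cdh5 had 4.69 CPM in D50A 5 and 6.93 CPM in wild type 3, and Ly6c1 had 34.7 CPM in D50A 5 and 34.2 CPM in wild type 3. The 10 cortex and hippocampus markers gave 13508, 13872, 14882, 12240 and 14045 CPM in D50A 1 to 5, against 7053, 13938 and 10997 CPM in wild type 1 to 3, so D50A 5 lay above wild type 3. It did so by little in the 8 listed of 11 oligodendrocyte markers, at 4129, 4196, 3599, 4542 and 4387 CPM in D50A 1 to 5, against 4919, 4359 and 4331 CPM in wild type 1 to 3.

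End use over the rest of the table moved with the same libraries. Over the other 5998 tested pairs, reads of the 3′-most end relative to the upstream end had a median log2 ratio of 4.22, 4.14, 4.09, 4.17 and 3.92 in D50A 1 to 5, against 3.80, 3.97 and 4.02 in wild type 1 to 3. D50A 5 lay below wild type 2 and 3. In 2097 of these pairs, those with a mean share between 20% and 90%, the median share of the 3′-most exon was 77.7%, 76.6%, 75.3%, 76.2% and 72.5% in D50A 1 to 5, against 69.9%, 71.7% and 75.2% in wild type. The part that marker levels, cell content or such library-wide differences have in the values of the 3 genes was not tested.

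**Figure D5:**
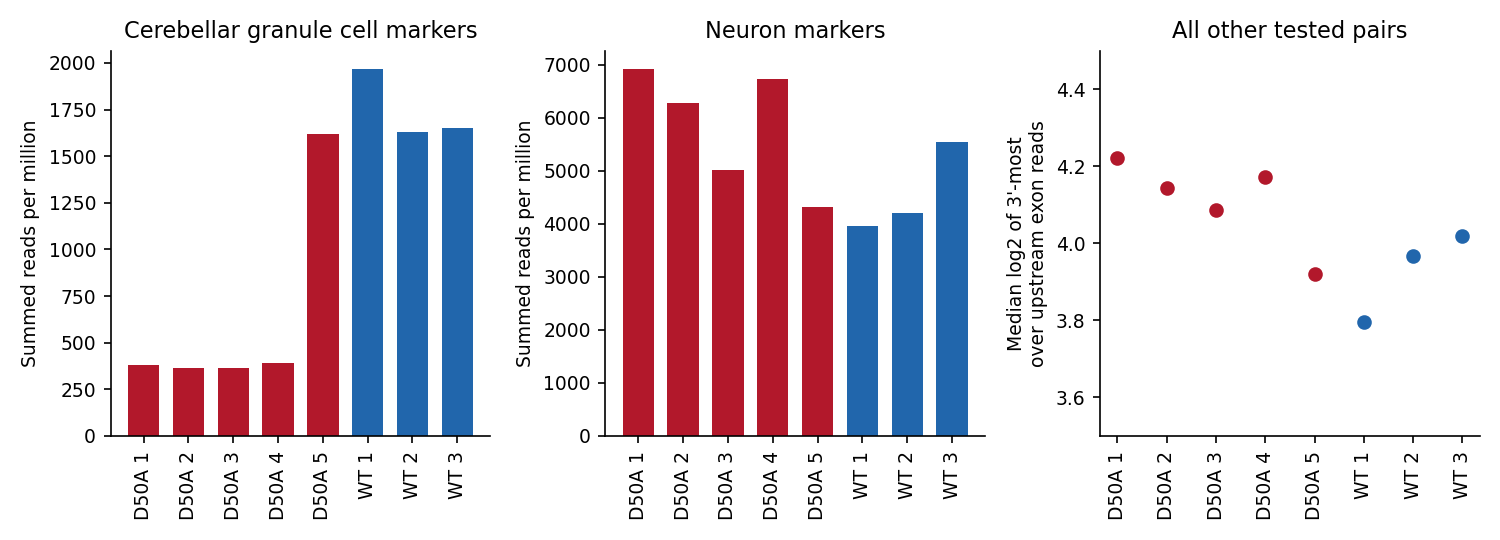
Summed level of cerebellar granule cell markers and of neuron markers (CPM) and the log2 ratio of reads at the 3′-most and the upstream end (median of 5998 other pairs), by library, with D50A in red left of wild type in blue. D50A 5, at 1619 CPM, stands with the wild types in granule cell markers, and at 4321 CPM it lies below wild type 3 (5550 CPM) in neuron markers.

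The tested pairs whose share followed each gene most closely over the 8 libraries were found by the mean absolute difference after each pair was centred on its own mean, among 5632 pairs that averaged 50 or more reads. For Unc5a these were Csmd2 (6.00 percentage points), Mtif2 (6.77), the endocytic adaptor gene Eps15l1 (7.93), Tecpr2 (8.07) and Pdzrn3 (8.07). For Kctd13 they were Eps15l1 (3.37), the TGF-beta co-receptor gene Tgfbr3 (3.604), Scrn3 (3.79), Kbtbd2 (3.85) and Copb1, a subunit of the COPI vesicle coat (4.09). For Mtif2 they were Pdzrn3 (3.29), Eps15l1 (4.48), the cytoskeletal linker gene Dst (4.63), Kbtbd2 (5.01) and Wdr20 (5.11). Eps15l1 was near all 3 genes, with a share of 77.7%, 81.7%, 80.6%, 86.3% and 63.0% in D50A 1 to 5, against 38.9%, 35.2% and 71.2% in wild type 1 to 3. These 11 pairs were picked for following the 3 genes over the same libraries, so a like order of libraries is built in. In 9 of them the share was lower in D50A 5 than in wild type 3, which is itself an overlap of the genotypes. The count of such pairs among the 5632 was not taken. The remaining 2 were Mtif2 itself and Scrn3. In all 11 pairs the level of the 3′-most end differed more between the genotypes than that of the upstream end. How often this held over all tested pairs was not counted, so nothing is read from it.

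Among genes of netrin and UNC5 signalling, 19 of 36 were tested for upstream against 3′-most exon ends, Unc5a included. None of the other 18 passed edgeR's test over all pairs in either direction, 3 pointed to the 3′-most exon and 0 to the upstream exon at an unadjusted p under 0.05, and in none did the genotypes separate. Over all 6001 pairs 623 and 217 passed that unadjusted p in these directions, and 4.23% and 1.65% separated the genotypes. Their median log2 change in usage was 0.47, compared with 0.17 over all tested pairs. The close relatives of Unc5a, looked up after values had been seen, used the 3′-most exon nearly throughout: its share was 97.0% to 98.0% in D50A and 95.6% to 98.4% in wild type for Unc5c, and 92.4% to 98.2% in D50A and 89.3% to 95.3% in wild type for Unc5d. Unc5b was listed with sites inside the 3′-most exon, where it gave 101, 90.4, 75.1, 106 and 62.4 CPM in D50A 1 to 5, against 26.8, 27.7 and 98.3 CPM in wild type 1 to 3. Dcc, the netrin receptor that mediates attraction, gave 31.9, 28.4, 20.8, 28.8 and 11.8 CPM in D50A 1 to 5, against 11.9, 9.20 and 16.2 CPM in wild type. These Dcc values are of its upstream and 3′-most exon ends together. In both Unc5b and Dcc, wild type 3 was the highest wild type and lay above D50A 5. Unc5d ran otherwise, with sites inside the 3′-most exon at 10.5, 10.8, 10.7, 12.1 and 8.35 CPM in D50A 1 to 5, against 8.21, 7.02 and 6.49 CPM in wild type 1 to 3, wild type 3 being the lowest. Unc5c sites gave 30.6, 28.9, 31.3, 27.9 and 36.2 CPM in D50A 1 to 5, against 38.6, 35.9 and 35.7 CPM in wild type 1 to 3, with wild type 3 below D50A 5. The upstream and 3′-most exon ends of Unc5c together gave 60.5, 57.0, 52.8, 54.4 and 54.5 CPM in D50A 1 to 5. Wild type 1 to 3 had 57.5, 51.7 and 59.9 CPM there, so wild type 3 lay above D50A 5 and the direction depends on the ends counted. For sites inside the 3′-most exon, 24 netrin and UNC5 genes were tested and edgeR called none.

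Among the KCTD family with CUL3 and its regulators, 23 of 50 genes were tested for upstream ends, Kctd13 included, and edgeR called none. Of the other 22, 1 pointed to the 3′-most and 2 to the upstream exon at an unadjusted p under 0.05, beside 623 and 217 of all 6001 pairs. The median log2 change of these 22 was 0.17, the same as over all pairs. The genotypes separated in 1 of them, with a higher share in D50A as in 4.23% of all pairs. This was Kctd2, with a 3′-most exon share of 99.3 ± 0.156% in D50A and 98.96 ± 0.126% in wild type (SD, n = 5 and 3; log2 change 0.53, SE 0.258, edgeR adjusted p = 0.368, range over alternatives 0.287 to 0.687). Cul3, the ligase scaffold, looked up likewise, had 3′-most exon shares of 96.1%, 94.4%, 93.5%, 94.2% and 90.9% in D50A 1 to 5, against 90.6%, 90.55% and 94.7% in wild type 1 to 3, so its genotypes overlapped. Rhoa, the substrate, had 99.8% to 99.9% in both genotypes. Tnfaip1 and Kctd10, the nearest relatives of Kctd13, were listed with sites inside the 3′-most exon. Their levels ran from 80.8 to 103 CPM in D50A and from 94.6 to 114 CPM in wild type for Tnfaip1, and from 21.3 to 28.3 CPM in D50A and from 21.0 to 31.1 CPM in wild type for Kctd10.

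Inside the 3′-most exon, 37 other genes of that list were tested, edgeR called none, and the genotypes separated only in Cops7a, a subunit of the COP9 signalosome. Its distal share was 15.8 ± 4.79% in D50A and 25.2 ± 3.07% in wild type (SD, n = 5 and 3; log2 change -0.84, SE 0.339, edgeR adjusted p = 0.38, range 0.135 to 0.816). Over all 7876 tested pairs of that table the distal share was lower without overlap in 128 (1.63%) and higher in 199 (2.53%), and 1019 had an unadjusted p under 0.05. After adjustment edgeR and limma called 0 (0.0%) and DESeq2 called 21 (0.267%).

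Of the genes that lie around Kctd13 on the chromosome, 5 of 28 were tested for upstream ends. Of the 4 others edgeR called none, and none separated the genotypes. At an unadjusted p under 0.05, 2 of the 4 pointed to the 3′-most and 0 to the upstream exon, beside 623 and 217 of all 6001 pairs. Of the 13 others tested inside the 3′-most exon, Asphd1 and Bola2 separated them with a higher distal share in D50A, as did 2.53% of all pairs. They had distal shares of 3.20 ± 0.352% in D50A and 2.53 ± 0.371% in wild type for Asphd1 (SD, n = 5 and 3; edgeR adjusted p = 0.455, range 0.386 to 0.816). For Bola2, an iron-sulphur protein partner, they were 0.712 ± 0.224% in D50A and 0.434 ± 0.0343% in wild type (SD, n = 5 and 3; edgeR adjusted p = 0.38, range 0.108 to 0.816).

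Among genes of mitochondrial translation, 50 of 141 were tested for upstream ends, Mtif2 included. edgeR called none of the other 49. At an unadjusted p under 0.05, 4 of them pointed to the 3′-most and 2 to the upstream exon, beside 623 and 217 of all 6001 pairs. The median log2 change of the 49 was 0.12 beside 0.17 over all pairs. In 3 of the 49 the share was higher in all D50A libraries and in 1 it was lower, beside 4.23% and 1.65% of all pairs. Mrps31, of the small mitochondrial ribosomal subunit, had a 3′-most exon share of 80.25 ± 2.73% in D50A and 65.1 ± 3.66% in wild type (SD, n = 5 and 3; log2 change 1.10, SE 0.356, edgeR adjusted p = 0.282, range 0.12 to 0.669). Taco1, a translational activator of cytochrome oxidase subunit I, had 95.9 ± 1.85% in D50A and 87.5 ± 4.71% in wild type (log2 change 1.71, SE 0.5, edgeR adjusted p = 0.282, range 0.0543 to 0.669). Mrpl36 had 99.8 ± 0.171% in D50A and 99.5 ± 0.0083% in wild type (edgeR adjusted p = 0.334, range 0.268 to 0.669). Mrpl41 lay the other way, with 92.3 ± 0.674% in D50A and 94.5 ± 0.315% in wild type (log2 change -0.51, SE 0.226, edgeR adjusted p = 0.337, range 0.223 to 0.678).

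Factors that act beside Mtif2 were also looked up after values had been seen. The elongation factor gene Gfm1 had 3′-most exon shares of 85.9%, 88.2%, 82.5%, 89.0% and 78.7% in D50A 1 to 5, against 79.2%, 78.1% and 78.1% in wild type 1 to 3, with D50A 5 among the wild types. For Mtif3, the other initiation factor, the distal share inside the 3′-most exon was 34.7% to 46.3% in D50A and 35.5% to 45.6% in wild type. Inside the 3′-most exon, edgeR called none of the 82 other mitochondrial translation genes, and 6 had a higher and 0 a lower distal share in all D50A libraries, beside 2.53% and 1.63% of all pairs. The largest differences among them were in Mrpl32, with 50.6 ± 5.20% in D50A and 34.7 ± 5.84% in wild type (SD, n = 5 and 3; edgeR adjusted p = 0.38, range 0.093 to 0.816), and Mrps14, with 49.3 ± 1.46% in D50A and 39.0 ± 5.65% in wild type (edgeR adjusted p = 0.38, range 0.11 to 0.816). Gatb, of the transamidation complex, had 35.4 ± 2.16% in D50A and 25.6 ± 8.25% in wild type (edgeR adjusted p = 0.38, range 0.113 to 0.816), and Mrpl46 had 58.9 ± 0.442% in D50A and 56.1 ± 2.84% in wild type (edgeR adjusted p = 0.623, range 0.545 to 0.901).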

How the data were processed

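Per the file headers, the authors deposited raw read counts per end and library, as whole numbers, in 2 tables. Per the submitters' processing notes, FastQC 0.11.3, STAR 2.5, HTSeq 0.6.0 and the build mm9 were used, with no roles given. How ends were picked and whether strand was used are not given in the sources used here. Positions were taken from the deposited table. Columns were assigned through the library code in each title, and 0 were left unused. Libraries are numbered in record order within a genotype, and the chi-square per degree of freedom between libraries of a genotype was 4.00 or more, so none was a copy. The labels describe separate animals.

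The genes and the lists were chosen with earlier results of these data known. Pairs were tested where both ends averaged 20 or more reads and each had 10 or more in all (6001 and 7876 pairs). Usage was tested with edgeR 4.0.16 (R 4.3.3), quasi-likelihood, with library as a block, TMM scaling and the interaction of end and genotype, adjusted by Benjamini-Hochberg over all pairs at 0.05. Standard errors were taken as the size of the log2 change divided by the root of the F statistic. DESeq2 1.42.0, limma 3.58.1, other filters, scalings and left-out libraries were alternatives. The fit was also run on simulated data with a single fixed dispersion and no differences between libraries of a genotype beyond depth and random draw. That run checks the code and does not show how the tests perform on these libraries. The planned test of the sites of Kctd13 and Mtif2 is not given, since their reads are those of the 3′-most exon. Genes named from a list were the up to 4 per direction with the largest difference in share, no overlap of the genotypes and 50 or more reads. RefSeq's gene table of another build (GRCm38.p6) served only to find overlapping genes. The number of reads limits each share, and intervals cover counting error only, as reads are not independent molecules.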

Additional observations from a re-analysis of the deposited data

Results flagged for a closer look

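Of 43 sets of 5 D50A values examined, 5 held a library whose gap to the nearest other exceeded 0.71 of the range. The usual chance rate of about 1 in 20 does not apply here. The sets share the same libraries, and many were picked for their values in them, such as Copb1 for its likeness to Kctd13. D50A 5 stood apart in the distal share of Kctd13, at 6.67% where the other D50A libraries had 0.875% to 1.59%. It also stood apart in the summed cerebellar granule cell markers, at 1619 CPM where the others had 362 to 393 CPM. The same held for the summed Purkinje cell markers, at 896 CPM where the others had 525 to 555 CPM. In the share of the 3′-most exon of Copb1 it had 82.4%, below the 92.2% to 95.7% of the others. D50A 4 stood apart in the proximal site of Mtif2, at 0.297 CPM (4 reads) where the others had 0.635 to 0.696 CPM.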

How the results depend on the processing

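The differences of Unc5a, Kctd13 and Mtif2 in share and in the level of the 3′-most exon kept their sign under every alternative run. Leaving out each library in turn, the share difference ran from 35.3 to 56.5 percentage points for Unc5a, from 22.0 to 38.5 for Kctd13 and from 27.3 to 39.3 for Mtif2. With reads pooled over the libraries of a genotype it was 37.2, 23.3 and 34.7. The upstream difference of Kctd13, which has no test, took both signs when a library was left out, from -0.13 to 0.30 on the log2 scale. Among tested pairs of upstream and 3′-most exon ends, DESeq2 called 5, and leaving out each library in turn gave 0 to 236 calls by edgeR (236 without D50A 5, 161 without wild type 3). For sites inside the 3′-most exon, DESeq2 called 21, and leaving out a library gave 0 to 1 (1 without wild type 3). The cause of these changes was not tested. limma called 0 in both tables, and edgeR called 0 with either other filter and with DESeq2's size factors. No paired analysis was possible because the labels describe separate animals and give no pairing of D50A with wild-type mice. Depth limits the lowest values most: wild type 1 had 6 Unc5a reads in the 3′-most exon (exact 95% Poisson interval 2.20 to 13.1).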
